A study of Mus musculus with 18 samples.

Results

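The rows named 4930506C21Rik, Itgad, Hnrnpu, Rrnad1 and Cops3 in a gene count table are described here across all 6 groups of a study of polyamine depletion in MIN6 cells, a mouse line derived from pancreatic beta cells. Each row shares exon bases with a gene for a mitochondrial protein on the opposite strand: Mpc1, Cox6a2, Cox20, Mrpl24 and Nt5m, in that order. These are 5 of 24557 rows, and all 5 passed the filter on low counts in every fit. They were chosen by symbol, from values that had already been seen in these libraries, so their differences are given below as a description with an error and without a p-value. Where a difference is said to have passed a threshold on adjusted p, that is part of the description and supports no difference.

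The groups, of 3 libraries each, were DENSpm with cytokines, DENSpm, DFMO with cytokines, DFMO, vehicle with cytokines, and vehicle. DENSpm was given at 10 µM and DFMO at 5 mM. The cytokine mix held IFN-γ, TNF-α and IL-1β, and all treatments lasted 24 h. DFMO blocks ornithine decarboxylase, the enzyme that makes putrescine, and DENSpm is a spermine analogue that drives polyamine breakdown. All groups are of 1 established cell line, named by the labels as MIN6, and the labels call the libraries biological replicates. P-values in the text measure the spread between these libraries.

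Beta cells couple glucose metabolism to insulin release through their mitochondria. Pyruvate enters the mitochondrial matrix through a carrier made of Mpc1 and Mpc2, and its oxidation feeds the respiratory chain. Cytochrome c oxidase is the last enzyme of that chain, and its core subunits are made inside the mitochondrion by a dedicated ribosome from mitochondrial DNA, whose copying needs a supply of deoxyribonucleotides. The facing genes cover these steps. Mpc1 encodes a carrier subunit, Cox6a2 the heart and muscle form of a cytochrome oxidase subunit, Cox20 a chaperone for the assembly of that enzyme, Mrpl24 a protein of the large mitochondrial ribosomal subunit, and Nt5m a mitochondrial deoxyribonucleotidase. The genes the rows are named for do other work. Itgad encodes a leukocyte integrin chain, Hnrnpu a nuclear RNA-binding protein and Cops3 a subunit of the COP9 signalosome, while 4930506C21Rik is annotated as non-coding.

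The totals of counts assigned to rows were small, from 403377 to 639625 per library, and they are not the sequencing depth. The libraries were strand-specific per the labels' protocols, and the strand setting used in counting is not given in the sources used here. Rows whose exons overlap exons of an opposite-strand gene numbered 5843 and held 83.3% of all counts. That share was 83.2% to 85.2% in the libraries with cytokines and 80.7% to 83.5% in those without, and the lowest value belonged to DENSpm replicate 2. Its part in the differences below was not tested. Taken by their own symbols, 12 beta cell marker genes all held counts, with a summed level of 3253 to 5248 CPM per library. The unknown strand setting bears on these marker rows too, so the sum is not a measure of beta cell expression. CPM are counts scaled to a common library total after TMM normalisation, and levels are compared here only within a row.

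For each of the 5 rows, the named mitochondrial gene held far fewer counts in the row of its own name. Over all 18 libraries the 4930506C21Rik row held 48161 counts and the Mpc1 row 110, so that the second was 0.228% of the first. The Itgad row held 1228 counts and the Cox6a2 row 3, or 0.244%. The Cops3 row held 4346 counts and the Nt5m row 9, or 0.207%. The share was larger for the other two loci. The Rrnad1 row held 22644 counts against 667 in the Mrpl24 row (2.95%), and the Hnrnpu row 13616 against 1570 in the Cox20 row (11.5%). Each row is therefore named below together with the gene it faces, and its values are assigned to neither. Which strand the reads of a row came from is not settled here, because the strand setting is unknown.

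The overlaps differ in size and kind, in the GRCm38 (mm10) annotation of GENCODE. The 4930506C21Rik gene (chr17:8293366-8311080, minus strand) shares 480 bp of exon with Mpc1 (chr17:8282904-8297661, plus strand), of which 33 bp code for Mpc1. Hnrnpu (chr1:178321108-178337797, minus strand) shares 804 bp with Cox20 (chr1:178319130-178322693, plus strand), and 312 bp of these code for Cox20. Only 1 of 9 Hnrnpu transcripts, a non-coding one, reaches into Cox20. Rrnad1 (chr3:87922601-87930717, minus strand) shares 594 bp with Mrpl24 (chr3:87919506-87923672, plus strand), of which 265 bp code for Mrpl24, and another 298 bp with Isg20l2 at its other end. The Isg20l2 row itself held 61 counts.

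For Itgad and Cops3 the named mitochondrial gene is not the largest partner. Itgad (chr7:128154376-128223816, plus strand) shares 70 bp with Cox6a2 (chr7:128205435-128206387, minus strand) at the 3′ end of Cox6a2, where neither gene codes. It shares 388 bp with the antisense locus 4931431B13Rik and 102 bp with Gm39091. The 4931431B13Rik row held 3 counts. Cops3 (chr11:59817795-59839838, minus strand) shares 87 bp with Nt5m (chr11:59839447-59880968, plus strand), in exons of 2 of 4 Nt5m transcripts, both non-coding. It shares 279 bp with Gm16062, an antisense locus at its other end, whose row held 22812 counts, more than the 4346 of Cops3. Which of these partners the reads of the Itgad and Cops3 rows came from cannot be told from counts per row.

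**Figure D1:**
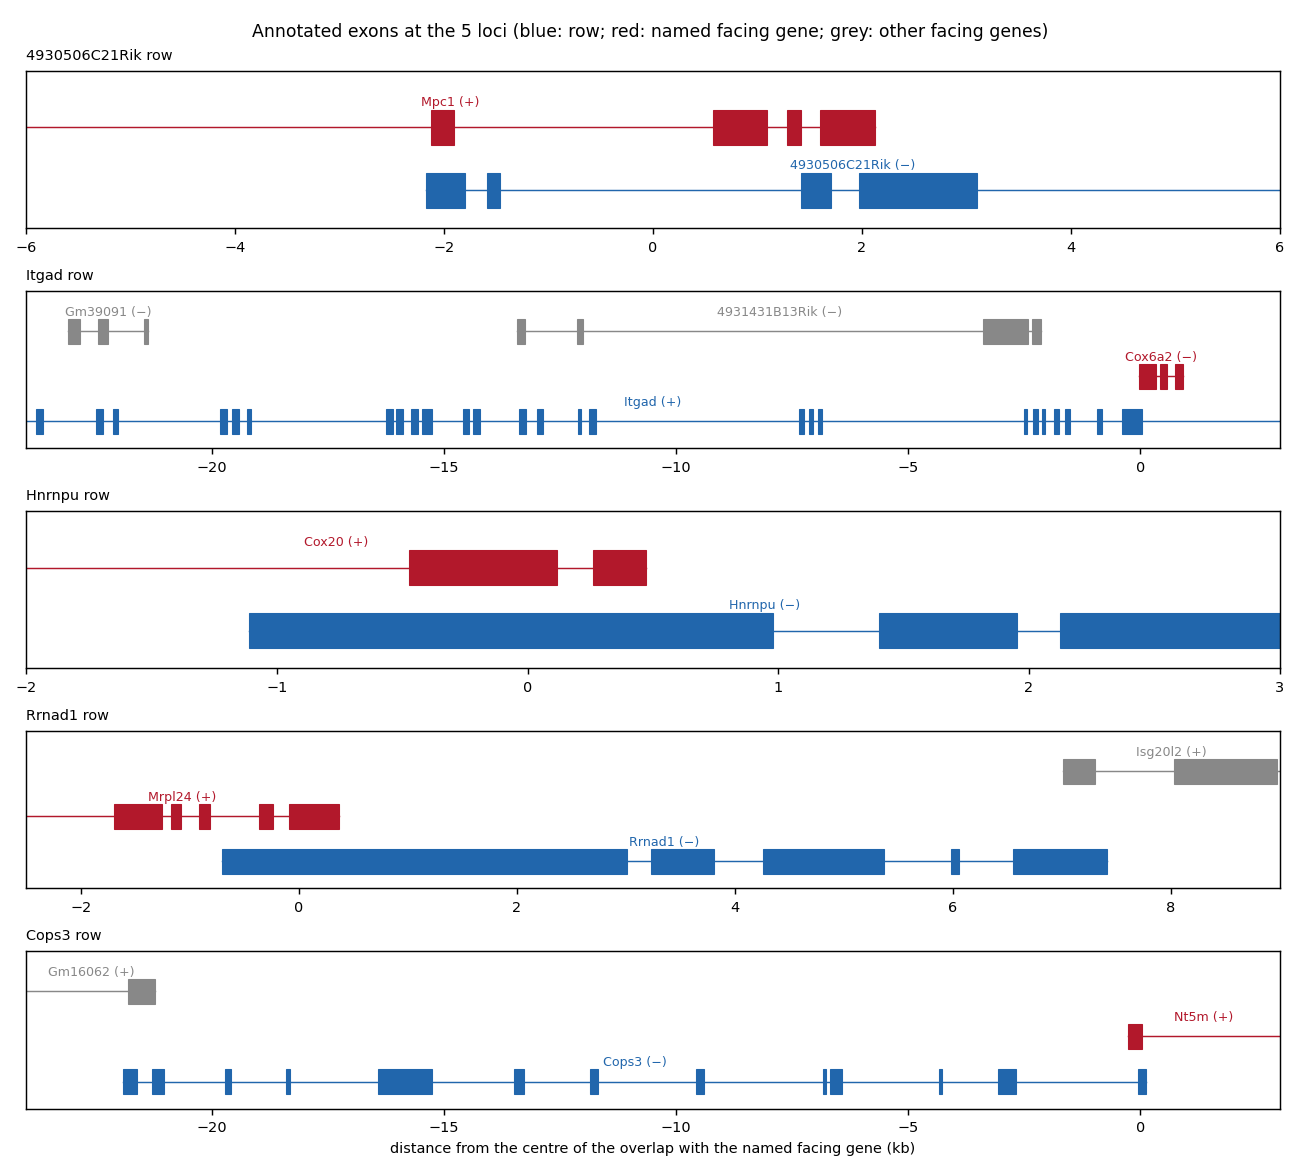
Annotated exons at the 5 loci, drawn to scale as boxes, with distance in kb from the centre of the overlap with the named mitochondrial gene on the horizontal axis. The row's own gene is blue, the named facing gene red and other facing genes grey, with the strand in brackets. The overlap is 804 bp for Cox20, 594 bp for Mrpl24 and 480 bp for Mpc1, against 87 bp for Nt5m and 70 bp for Cox6a2.

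The shared bases are shown on the strand of the mitochondrial gene, 5′ to 3′, because reads of these bases are what a row and the gene it faces both lay claim to. In the lines for Cox20, Mrpl24 and Mpc1 the capitals mark the stop codon of the mitochondrial gene, which in each case lies within an exon of the opposite gene. The Cox20 line (chr1:178322481-178322616, plus strand) is the last coding stretch of that gene, all of it inside the non-coding Hnrnpu transcript.
Cox20: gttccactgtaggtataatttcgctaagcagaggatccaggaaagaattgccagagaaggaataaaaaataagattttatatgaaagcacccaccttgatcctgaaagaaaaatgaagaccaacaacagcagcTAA
Mrpl24: cgaagattcaagaaagtttattggtatTGA
Mpc1: gatgagtaagcggccatctgcaTAG
Cox6a2: caagcaatacattgaatattgagcatatta
Nt5m: tccagagcagacgcCATgtttccccccgct
The Mrpl24 line is chr3:87923317-87923346 on the plus strand and the Mpc1 line chr17:8297138-8297162 on the plus strand. The Cox6a2 line (chr7:128205435-128205464, minus strand) is the end of its transcript and holds no coding base. In the Nt5m line (chr11:59839708-59839737, plus strand) the capitals are the complement of the Cops3 start codon, so these bases are non-coding for Nt5m and include the first codon of Cops3. Sequences are those of GENCODE transcripts.

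The row facing Mpc1, the pyruvate carrier gene, was higher with cytokines whichever drug was present. In DENSpm with cytokines the 4930506C21Rik row stood at 7502, 7947 and 7954 CPM, against 3525, 1846 and 4302 CPM in DENSpm. In DFMO with cytokines it stood at 6816, 7847 and 7259 CPM, against 3095, 3019 and 3653 CPM in DFMO. In vehicle with cytokines it stood at 8243, 9305 and 9251 CPM, against 3205, 3480 and 3913 CPM in vehicle. Every library with cytokines was above every library without, and DENSpm replicate 2 was the lowest of all 18. The log2 fold change with cytokines was 1.28 ± 0.18 (SE) in DENSpm, 1.14 ± 0.09 in DFMO and 1.34 ± 0.09 in vehicle, or 2.43-fold, 2.20-fold and 2.54-fold. The difference between these cytokine responses was not called: it was -0.07 ± 0.25 for DENSpm against vehicle and -0.20 ± 0.13 for DFMO against vehicle. A row is called where its adjusted p is under 0.05 by edgeR's quasi-likelihood test with Benjamini-Hochberg adjustment over all rows of the fit. The share of cells that hold an RNA and its amount per cell cannot be told apart in these bulk samples.

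The drugs differed less from vehicle on the Mpc1-facing row than the cytokines did. Without cytokines the log2 fold change was -0.12 ± 0.17 with DENSpm, a 95% interval of -0.46 to 0.22, and -0.10 ± 0.09 with DFMO, an interval of -0.28 to 0.09. With cytokines it was -0.19 ± 0.17 with DENSpm, which was not called, and -0.30 ± 0.09 with DFMO, which was. The DFMO call rests on each of several libraries. It was lost without DFMO with cytokines replicate 1 (-0.25) or 3 (-0.30), or without vehicle with cytokines replicate 2 (-0.26) or 3 (-0.27). It was also lost in the fit of all 18 libraries and without a filter on low counts, both at -0.29. The Mpc1 row itself held 0 to 17 counts per library, too few to set beside these values.

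The promoter of Mpc1 is shown because the row that faces this gene holds the most counts of the 5 and was higher with cytokines in all 3 backgrounds. It is the RefSeq window of GRCm38.p6 from 250 bases before to 50 after the first of 2 listed starts (chr17:8283537-8283836, plus strand). Capitals mark the 1 match to CCGGAAG, an ETS-type motif, searched on both strands.
Mpc1 promoter: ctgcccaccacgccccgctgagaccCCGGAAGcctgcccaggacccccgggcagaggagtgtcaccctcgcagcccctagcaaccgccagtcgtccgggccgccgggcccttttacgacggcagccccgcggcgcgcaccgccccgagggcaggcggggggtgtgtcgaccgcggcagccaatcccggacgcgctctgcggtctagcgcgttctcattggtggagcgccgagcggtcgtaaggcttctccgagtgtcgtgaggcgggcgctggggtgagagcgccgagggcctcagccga
Of 32851 promoter windows in that table, 8.86% hold CCGGAAG. The window holds no match to TTCNNNGAA, the core of the gamma-activated site, or to a short form of the interferon-stimulated response element (GAAA, any 2 bases, GAAA), on either strand. These letters are held by 8.30% and 3.44% of all windows. Promoter windows were found for 4 of the 5 facing genes, Cox6a2 being the exception. Among the windows of Cox20, Mrpl24 and Nt5m, that of Cox20 holds 1 match to CCGGAAG, and the window of the second Mpc1 start holds none. Of the genes the rows are named for, 4930506C21Rik, Rrnad1 and Cops3 have 1 match each and Hnrnpu has none. None of these windows holds a match to the other two motifs.

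The row facing Cox6a2, the heart and muscle form of a cytochrome oxidase subunit, was lower with cytokines in every background and lower still with DFMO. In DENSpm with cytokines the Itgad row stood at 71.7, 130 and 142 CPM, against 246, 368 and 174 CPM in DENSpm. In DFMO with cytokines it stood at 18.7, 15.9 and 4.34 CPM, which were 7, 7 and 2 counts, against 95.9, 129 and 79.2 CPM in DFMO. In vehicle with cytokines it stood at 60.3, 94.4 and 103 CPM, against 244, 228 and 235 CPM in vehicle. The libraries with cytokines lay below those without in each of the 3 pairs, and the 3 libraries of DFMO with cytokines lay below all others. The log2 fold change with cytokines was -1.20 ± 0.28 in DENSpm, -2.99 ± 0.41 in DFMO and -1.45 ± 0.30 in vehicle. The DENSpm call was lost without DENSpm replicate 2 (-0.88) or DENSpm with cytokines replicate 1 (-0.97).

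DFMO and DENSpm differed on this row. With DFMO the Itgad row was lower than in vehicle, by a log2 fold change of -1.20 ± 0.30 without cytokines and -2.74 ± 0.42 with them. With DENSpm the value was 0.18 ± 0.27 without cytokines, an interval of -0.35 to 0.71, and 0.42 ± 0.30 with them, an interval of -0.18 to 1.01. DENSpm against DFMO gave 1.38 ± 0.31 without cytokines and 3.15 ± 0.42 with them. The second value is an 8.89-fold difference and rests on the few counts of DFMO with cytokines. The interaction of DFMO with cytokines was -1.55 ± 0.53 and was not called. The counts of the row over a group ran from 16 in DFMO with cytokines to 398 in DENSpm.

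Itgad is known from leukocytes and Cox6a2 from striated muscle, so markers of both were looked at by their own symbols. Of 3 immune genes 2 held counts, 6 in all over 18 libraries, with a summed level of 0 to 4.44 CPM per library and Ptprc at 0. Of 5 striated muscle genes 3 held counts, 517 in all, with a summed level of 23.8 to 102 CPM and Actn2 and Tnnt2 at 0. Row symbols are subject to the same strand question as the 5 rows.

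The row facing Cox20, the assembly chaperone gene, was lower with cytokines in DFMO, and its cytokine difference was not called in DENSpm or vehicle. In DENSpm with cytokines the Hnrnpu row stood at 2015, 1993 and 2427 CPM, against 1718, 1350 and 1975 CPM in DENSpm. In DFMO with cytokines it stood at 1276, 1300 and 1231 CPM, against 1965, 2061 and 1427 CPM in DFMO. In vehicle with cytokines it stood at 1245, 1458 and 1193 CPM, against 1322, 1164 and 1258 CPM in vehicle. The cytokine libraries were the higher ones in DENSpm, the lower ones in DFMO, and overlapped with the others in vehicle. The log2 fold change with cytokines was 0.35 ± 0.14 in DENSpm, which was not called, -0.54 ± 0.12 in DFMO, which was, and 0.06 ± 0.12 in vehicle, which was not.

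The difference between the cytokine response in DENSpm and that in DFMO was 0.87 ± 0.20 for the Hnrnpu row and was called. This contrast was added after these values had been seen, on a row chosen from them, so it is a description and supports no difference between the drugs. The call was lost without 7 of the 12 libraries in turn, at values from 0.73 without DENSpm replicate 2 to 0.89 without DFMO with cytokines replicate 2. The others were DENSpm with cytokines replicate 3 (0.78), DFMO replicates 1 (0.81) and 2 (0.80), and DFMO with cytokines replicates 1 (0.88) and 3 (0.86). The interaction of DENSpm with cytokines, 0.28 ± 0.20, was not called. That of DFMO with cytokines, -0.60 ± 0.16, was not called either, although it was without DFMO replicate 3 (-0.76) and by DESeq2 (-0.59).

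Against vehicle, the Hnrnpu row was higher with DFMO without cytokines (0.56 ± 0.12, called) and not with them (-0.04 ± 0.12, an interval of -0.27 to 0.19). With DENSpm it was higher in the presence of cytokines, at 0.72 ± 0.14, and that call was lost without vehicle with cytokines replicate 1 (0.70) or 3 (0.66). Without cytokines DENSpm gave 0.44 ± 0.14, which was called only without DENSpm replicate 2 (0.57). DENSpm against DFMO gave 0.76 ± 0.14 with cytokines and -0.11 ± 0.14 without. The Cox20 row itself held 1570 counts, and its 3 DENSpm libraries spread from 90.9 to 556 CPM, the highest in replicate 2.

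The row facing Mrpl24, a gene of the mitochondrial ribosome, was lower with DENSpm. In DENSpm with cytokines the Rrnad1 row stood at 1837, 2225 and 2588 CPM, against 1722, 1305 and 1858 CPM in DENSpm. In DFMO with cytokines it stood at 3230, 3848 and 3461 CPM, against 2096, 2469 and 2626 CPM in DFMO. In vehicle with cytokines it stood at 3185, 3756 and 3797 CPM, against 2450, 2540 and 2852 CPM in vehicle. The DENSpm libraries lay below the vehicle libraries with and without cytokines, and the DFMO libraries overlapped with them. Against vehicle the log2 fold change with DENSpm was -0.67 ± 0.14 without cytokines and -0.69 ± 0.14 with them, while with DFMO it was -0.10 ± 0.10 (interval -0.30 to 0.09) and -0.04 ± 0.10 (interval -0.23 to 0.16). DENSpm against DFMO gave -0.56 ± 0.14 without cytokines and -0.67 ± 0.14 with them, both called.

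The DENSpm calls against vehicle depended on single libraries in the smaller fits. Without cytokines the call was lost without DENSpm replicate 1 (-0.71) or without vehicle replicate 1 (-0.72), 2 (-0.70) or 3 (-0.60). With cytokines it was lost without DENSpm with cytokines replicate 1 (-0.60) or vehicle with cytokines replicate 2 (-0.64) or 3 (-0.65). The value without cytokines was also not called in a fit of the 2 groups alone (-0.68). Cytokines raised the Rrnad1 row by 0.53 ± 0.10 in DFMO and 0.46 ± 0.10 in vehicle. The value in DENSpm, 0.45 ± 0.14, was not called, but it was without DENSpm replicate 3 or DENSpm with cytokines replicate 1 (both 0.55). It was also called by DESeq2 (0.43), in the fits of all 18 libraries, of halved counts and with a replicate block (0.44 each) and without a filter (0.47). The interaction of DENSpm with cytokines was -0.02 ± 0.20, an interval of -0.42 to 0.37.

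The row facing Nt5m, the mitochondrial deoxyribonucleotidase gene, was highest in DENSpm. In DENSpm with cytokines the Cops3 row stood at 373, 413 and 642 CPM, against 887, 659 and 1040 CPM in DENSpm. In DFMO with cytokines it stood at 415, 317 and 421 CPM, against 332, 479 and 420 CPM in DFMO. In vehicle with cytokines it stood at 341, 424 and 367 CPM, against 461, 456 and 529 CPM in vehicle. The 3 DENSpm libraries were above the other 15, and DFMO overlapped with vehicle. The log2 fold change with DENSpm was 0.85 ± 0.19 without cytokines and 0.33 ± 0.19 with them, the second not called. That with DFMO was -0.21 ± 0.16 and 0.02 ± 0.17. The DENSpm call was lost without DENSpm replicate 1 (0.83) or 3 (0.69), without vehicle replicate 1 (0.81), 2 (0.80) or 3 (0.92), and in a fit of the 2 groups alone (0.84).

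Cytokines lowered the Cops3 row in DENSpm by a log2 fold change of -0.86 ± 0.19, against -0.12 ± 0.17 in DFMO and -0.35 ± 0.16 in vehicle, neither of them called. The interaction of DENSpm with cytokines was -0.52 ± 0.27 and was not called. DENSpm against DFMO without cytokines gave 1.07 ± 0.19, which was called. The row of Gm16062, which lies opposite the other end of Cops3, stood at 2419 ± 411 CPM (SD, n = 3) in DENSpm and 2863 ± 223 CPM in vehicle, where edgeR gave a log2 fold change of -0.23 ± 0.15 (adjusted p = 0.58). With cytokines it fell with DFMO, by a log2 fold change of -0.43 ± 0.10 (adjusted p = 0.002 by edgeR).

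**Figure D2:**
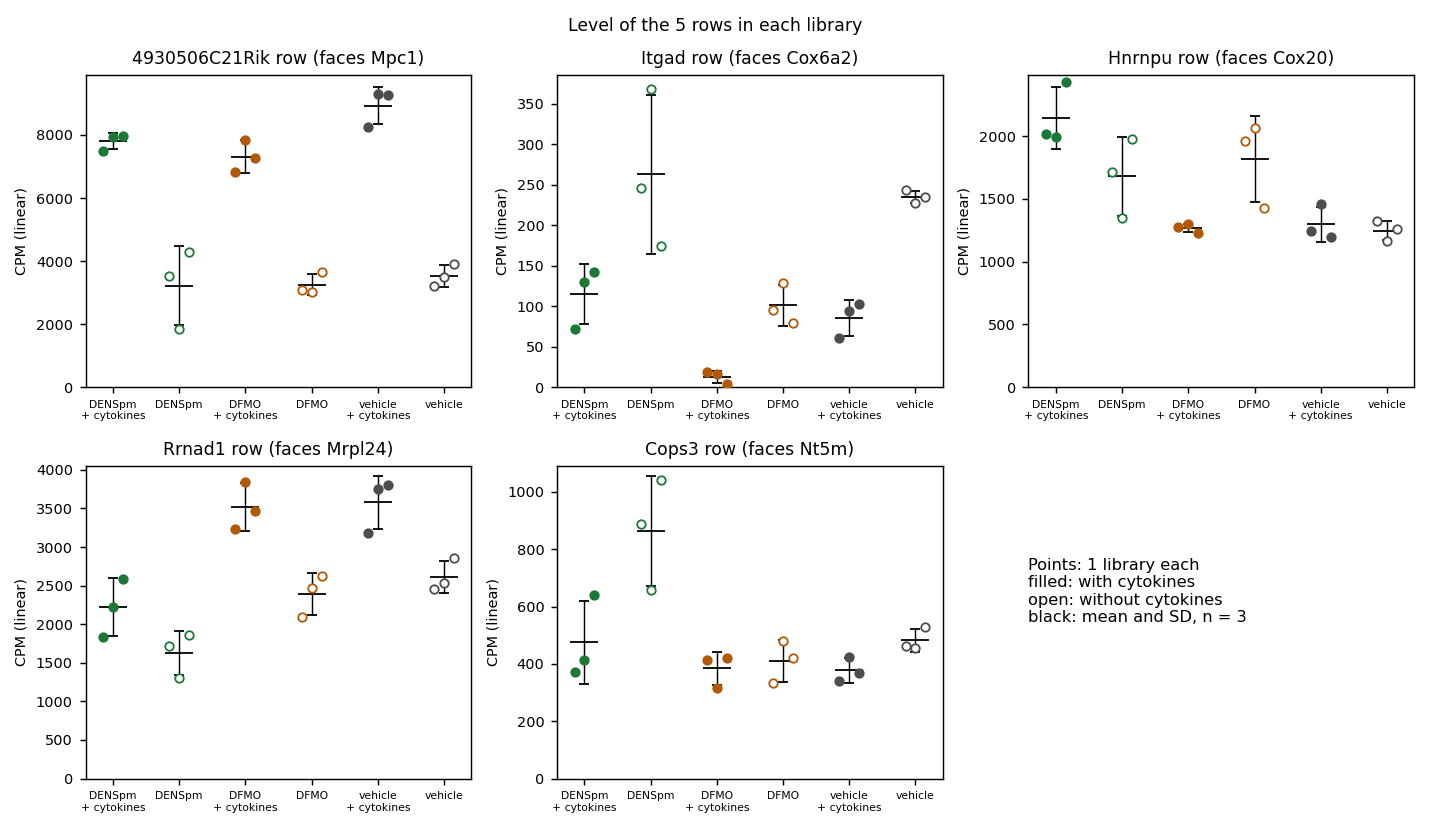
Level of each of the 5 rows in CPM, on linear axes from 0, in the 18 libraries. Each point is 1 library, filled with cytokines and open without, and black marks give the mean and SD of 3 libraries. The Mpc1-facing row lies between 6816 and 9305 CPM in all libraries with cytokines, and the Nt5m-facing row reaches 659 to 1040 CPM in DENSpm.

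The order of the group means shows how each row sorted the groups, and many neighbours in it overlapped. The 4930506C21Rik row had means of 3224 CPM in DENSpm, 3256 in DFMO and 3533 in vehicle, which overlapped with each other. Above them stood 7307 in DFMO with cytokines, 7801 in DENSpm with cytokines and 8933 in vehicle with cytokines, of which the vehicle libraries lay apart from the DENSpm ones next to them. The Itgad row ran from 13 CPM in DFMO with cytokines, apart from the rest, to 235 in vehicle and 263 in DENSpm, which overlapped. The means of the Hnrnpu row ran from 1248 CPM in vehicle to 2145 CPM in DENSpm with cytokines, and every group overlapped with its neighbour in that order. The Rrnad1 row ran from 1628 CPM in DENSpm to 3579 CPM in vehicle with cytokines, with a gap only between vehicle (2614) and DFMO with cytokines (3513). In the Cops3 row only DENSpm, at 862 CPM, stood apart from its neighbour, vehicle at 482 CPM.

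The number of the 5 rows called is read against the share of all rows called in the same comparison. With cytokines 3 of the 5 were called in DENSpm, where 7.42% of 3315 rows were, 4 in DFMO, where 13.1% of 3302 rows were, and 3 in vehicle, where 9.9% were. DENSpm against vehicle called 2 of 5 without cytokines (0.543% of all rows) and 2 with cytokines (1.33%). DFMO against vehicle called 2 without cytokines (14.6%) and 2 with cytokines (11.1%). DENSpm against DFMO called 3 without cytokines (11.2% of 3713 rows) and 3 with cytokines (10.2%). Neither interaction with vehicle called any of the 5, with 0.424% of all rows called for DFMO and 0 rows for DENSpm, where 169 rows had an unadjusted p under 0.05 and DESeq2 also called 0. The added contrast of the cytokine responses in DENSpm and DFMO called 1 of 5 (0.269%). Since the 5 rows were chosen with these results known, nothing is read from these counts, and comparisons with the same vehicle or drug libraries share those samples.

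**Figure D3:**
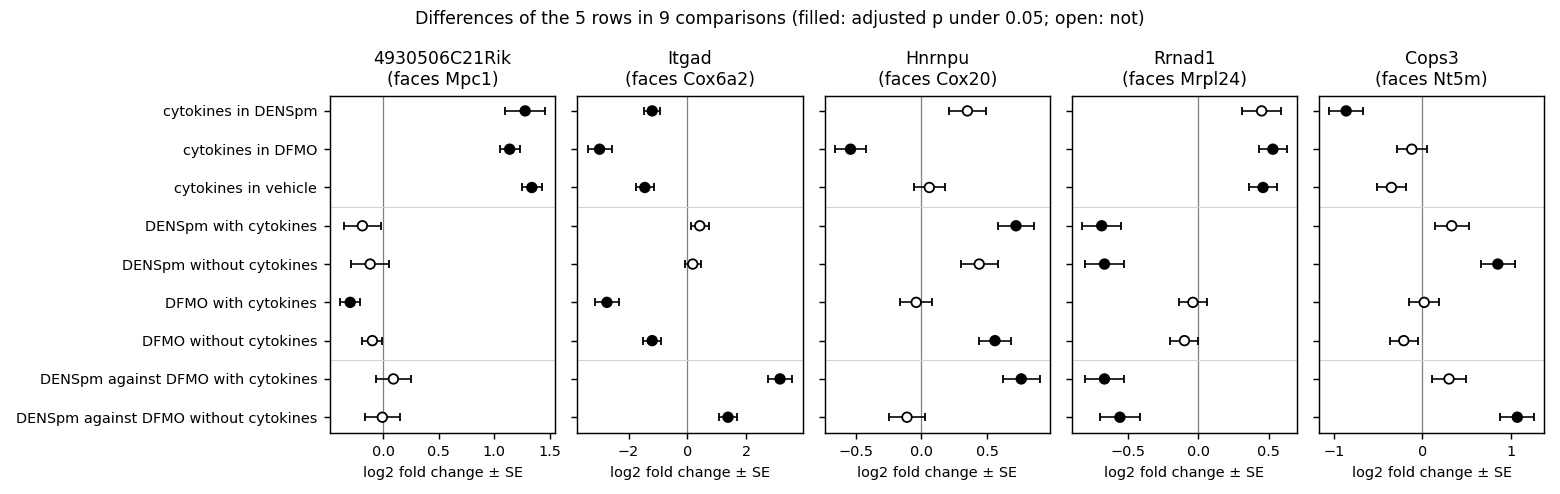
Log2 fold change of each row with its SE in 9 comparisons of 2 groups, the cytokine comparisons on top, then each drug against vehicle, then DENSpm against DFMO. Filled points have an adjusted p under 0.05 by edgeR and open points do not; each panel has its own horizontal scale. The Itgad row reaches -2.99 with cytokines in DFMO and 3.15 for DENSpm against DFMO with cytokines.

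The rows of the facing genes themselves were not called. By edgeR 0 of the 3 that passed the filter in the DFMO table (Mpc1, Cox20 and Mrpl24) and 0 of the 2 in the DENSpm table (Cox20 and Mrpl24) were called in any comparison, and at an unadjusted p under 0.05 there was 1 in each of 4 comparisons. DESeq2 also called 0. Cox20 gave 0.70 ± 0.30 with DFMO (adjusted p = 0.126) and 1.41 ± 0.64 with DENSpm (adjusted p = 0.445), both without cytokines. Mrpl24 gave 0.99 ± 0.37 for DENSpm against DFMO without cytokines (adjusted p = 0.0724) and 0.73 ± 0.36 with them (adjusted p = 0.222), where the Rrnad1 row that faces it had the opposite sign. The Cox6a2 and Nt5m rows, with 3 and 9 counts, were not tested.

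Other mitochondrial genes were taken from 8 lists of 326 genes, 297 of them with a row of their own symbol, first by the gene a row faces. The lists were chosen with earlier results of these data known. Rows given a p-value below were picked from them as called rows of large change, so those p-values are a description. Apart from the 5 rows, 84 rows faced a listed gene, and 55 of them were tested in the DFMO table. DFMO called 11 of these 55 without cytokines, 5 higher and 6 lower, where 14.6% of all rows were called, and 11 with cytokines, again 5 and 6, where 11.1% were. Their median log2 fold change was -0.06 without cytokines and -0.22 with them, where all rows had 0.00. Cytokines in vehicle called 4 of 55 (7.27%, against 9.9% of all rows), 3 higher and 1 lower. The median there was 0.03, against -0.01 for all rows. DENSpm called 0 of 56 by edgeR in either condition, where 1.33% of all rows were called with cytokines and 0.543% without. At an unadjusted p under 0.05 there were 10 of the 56 with cytokines and 9 without. DESeq2 called 4 of these rows with cytokines and 3 without.

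Of 10 rows facing genes of mitochondrial DNA upkeep and nucleotide supply, 3 fell and 0 rose with DFMO in either condition, where 14.6% of all rows were called without cytokines and 11.1% with them. Without cytokines 2 of these 3, Cdc37l1 and 1700018L02Rik, faced the same gene, Ak3. The median was -0.54 without cytokines and -0.46 with them. The Cenpu row, which faces Primpol, a gene for a primase-polymerase that restarts replication, stood at 604 ± 56.7 CPM in DFMO and 1061 ± 106 CPM in vehicle (SD, n = 3; -0.79 ± 0.12, adjusted p = 3.6e-06 by edgeR). The Cdc37l1 row, facing the adenylate kinase gene Ak3, stood at 421 ± 21.9 CPM in DFMO and 763 ± 66.5 CPM in vehicle (-0.83 ± 0.14, adjusted p = 2.1e-05 by edgeR). The Nt5m-facing Cops3 row gave -0.21 ± 0.16 in the same comparison.

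Rows facing mitochondrial ribosome genes went both ways with DFMO. Of 13, 1 rose and 2 fell without cytokines (14.6% of all rows called), and 1 rose and 3 fell with them (11.1%). The Twnk row, which faces Mrpl43 and is also counted by its own symbol among the mitochondrial DNA genes, stood at 1959 ± 93.3 CPM in DFMO and 2757 ± 35.8 CPM in vehicle (-0.47 ± 0.09, adjusted p = 2.1e-04 by edgeR). The 4930473A02Rik row, facing Mrps26 and also Ptpra, stood at 1905 ± 126 CPM in DFMO and 1356 ± 44.8 CPM in vehicle (0.51 ± 0.11, adjusted p = 5.7e-04). The Mrpl24-facing Rrnad1 row gave -0.10 ± 0.10 there. DENSpm against DFMO without cytokines called 3 of the 13, all higher (11.2% of all rows called), with a median of 0.38. With cytokines it called 4 of 13, all higher (10.2%), with a median of 0.27. The Rrnad1 row had the opposite sign in both, at -0.56 ± 0.14 and -0.67 ± 0.14. DENSpm against vehicle called 0 of the 13 without cytokines (0.543%) and 0 with them (1.33%).

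Of 8 rows facing cytochrome oxidase subunits and assembly factors, 2 rose with DFMO without cytokines (14.6% of all rows called). With DFMO in the presence of cytokines 1 rose (11.1%), and with cytokines in vehicle 1 rose and 1 fell (9.9%). The Ncaph2 row, which faces the copper chaperone gene Sco2 and also Tymp, stood at 1313 ± 210 CPM in vehicle with cytokines and 773 ± 16 CPM in vehicle (0.77 ± 0.12, adjusted p = 1.8e-06 by edgeR). It also rose with cytokines in DFMO (0.70 ± 0.12) and in DENSpm (0.68 ± 0.18, adjusted p = 0.016). The Surf2 row, which faces the assembly factor gene Surf1 and also Surf4, fell with cytokines in vehicle (-0.57 ± 0.15) and in DFMO (-0.85 ± 0.15) and rose with DFMO without cytokines (0.54 ± 0.15, adjusted p = 0.0075). The Cox6a2-facing Itgad row was lower in all 3 of these comparisons.

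Of 11 rows facing import genes, 2 rose with DFMO in both conditions. Of all rows, DFMO called 14.6% without cytokines and 11.1% with them. The Tomm6os row, facing the outer membrane translocase gene Tomm6 and also Prickle4 and Gm21981, stood at 3929 ± 261 CPM in DFMO and 2586 ± 247 CPM in vehicle (0.63 ± 0.10, adjusted p = 4.3e-06 by edgeR). The AU019823 row, facing the inner membrane import gene Timm8b and also Pih1d2, stood at 1080 ± 64.2 CPM in DFMO and 683 ± 77.6 CPM in vehicle (0.68 ± 0.13, adjusted p = 9.2e-05). Besides the Mpc1-facing row, 3 rows faced genes of pyruvate entry and the citric acid cycle. Of these the Map3k15 row, facing the pyruvate dehydrogenase gene Pdha1, rose with DFMO in the presence of cytokines (0.32 ± 0.09, adjusted p = 0.014). Genes encoded by mitochondrial DNA were not analysed here.

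**Figure D4:**
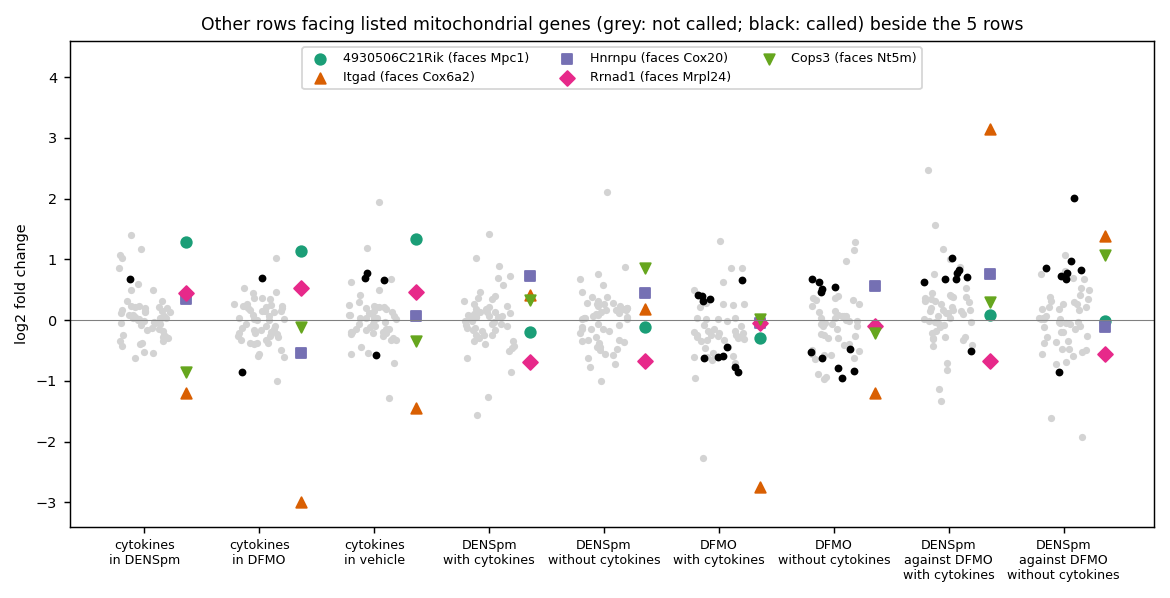
Log2 fold change of the other rows that face a listed mitochondrial gene (small points, black where called by edgeR and grey where not) and of the 5 rows (coloured symbols) in 9 comparisons. DFMO called 11 of 55 small points in either condition, where 11.1% of all rows were called with cytokines and 14.6% without. DENSpm called 0 of 56 in either condition, where 1.33% of all rows were called with cytokines and 0.543% without. The Itgad symbol reaches -2.99 and 3.15.

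Taken by their own symbols, 53 listed genes were tested in the DFMO table. DFMO without cytokines called 10 of them, 4 higher and 6 lower (18.9%, against 14.6% of all rows), and with cytokines 4, all lower (7.55%, against 11.1%). The Polg row, named for the mitochondrial DNA polymerase gene and facing Fanci, stood at 202 ± 50.4 CPM in DFMO and 406 ± 20.8 CPM in vehicle (-0.98 ± 0.19, adjusted p = 1.8e-04 by edgeR). In the same comparison the Fanci row, which faces Polg, gave -0.01 ± 0.14 and was not called. The Surf1 row, facing Surf2, stood at 416 ± 118 CPM in DENSpm and 201 ± 19.2 CPM in DFMO (1.05 ± 0.19, adjusted p = 1.4e-04). There the Surf2 row, which faces Surf1, gave -0.85 ± 0.18 and was called. The unknown strand setting bears on these rows in the same way.

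The 5 rows differed in how alike they were. Pearson's r of log2(CPM + 1) between any 2 of them over the 18 libraries ran from -0.61, between the Itgad and Rrnad1 rows, to 0.678, between the 4930506C21Rik and Rrnad1 rows. These values are a description, since the libraries fall into treatment groups that all rows share. Among 2673 rows with a mean of at least 20 CPM, those most like the 4930506C21Rik row were Ifi27l2a (r = 0.954), 2610020C07Rik, facing Gspt1 (0.946), and Parp9, facing Dtx3l (0.941). Those most like the Itgad row were Fbxl13, facing Lrrc17 (0.933), Riox2, facing Crybg3 (0.929), and Zfp276, facing Fanca and Vps9d1 (0.923). For the Hnrnpu row they were Homer3, facing Ddx49 (0.852), Tmem88, facing Naa38 (0.826), and D230025D16Rik, facing B3gnt9 (0.806). For the Rrnad1 row they were Ccdc38, facing Snrpf (0.926), Acat3, facing Tcp1 (0.89), and Crbn, facing Trnt1 (0.883). The Cops3 row had less similar partners, Tbc1d16, facing Gm26888 (0.815), Khnyn, facing Sdr39u1 (0.736), and Ints5 (0.722).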

How the data were processed

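RNA of 18 MIN6 libraries in 6 groups of 3 was sequenced as strand-specific poly(A) libraries, per the labels' protocols. The authors deposited raw counts per gene and log2 normalised values in a table for DFMO and a table for DENSpm, each with the same 6 libraries without drug. FastQC, HTSeq, DESeq2 and the mm10 build are named per the submitters' processing notes, while no source used here gives the aligner, annotation or strand setting. The deposited log2 values were not used in a test.

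Raw counts were tested with edgeR 4.0.16 (R 4.3.3, limma 3.58.1): TMM scaling, a filter on low counts by group, quasi-likelihood F tests with robust dispersion, and Benjamini-Hochberg adjustment over all rows of a fit at 0.05. An SE is the log2 fold change divided by the square root of F, and a 95% interval is 1.96 SE on either side. Fits held 12 libraries (DFMO table, 3302 rows; DENSpm table, 3315 rows) or all 18 (DENSpm against DFMO, 3713 rows). Levels are CPM on the TMM scale of the 18-library fit. Of the symbols, 26 that had been turned into dates were restored, and 24188 rows were matched to GENCODE vM21 to find exons on the opposite strand. Counting error alone limits rows with few counts, such as the Itgad row in DFMO with cytokines.

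The members and gene lists were chosen with earlier results of these data known. Rows from the lists were named by a fixed rule: up to 3 per list and comparison with the largest change among those called and a mean of at least 5 CPM, and the 3 rows most like each member by Pearson's r. The text gives a part of these. Which comparison chose the members is not recorded, and a naming criterion recomputed from the counts (the 6 largest changes each way) named only Rrnad1, so no p-value is printed for them. Same-numbered replicates did not pair, and the fits have no replicate block. The code was tested on simulated data for cytokines in vehicle, DFMO without cytokines and DENSpm without cytokines. Changes of 1.5-fold were called in 15.2%, 13.0% and 6.38% of changed rows, in that order, and of 4-fold in 80.0%, 84.0% and 80.0%. Changes of 2-fold were called in 38.8%, 42.9% and 41.7%, and falls to 0.5-fold in 29.3%, 37.8% and 36.4%. Of the simulated calls 4.88%, 3.37% and 10.2% were false. Alternatives were DESeq2 1.42.0, no filter on low counts, halved counts, only the groups compared, all 18 libraries, a replicate block, and leaving out each library in turn.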

Additional observations from a re-analysis of the deposited data

Results flagged for a closer look

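The cytokine response of the Cox20-facing Hnrnpu row differed between DENSpm and DFMO by a log2 value of 0.87 ± 0.20 (SE). It is listed by a rule that takes differences between cytokine responses that were called, and the signs of its responses were opposite. The Itgad row had a larger value in this contrast, 1.77 ± 0.53, which was not called. The Hnrnpu row was chosen from these values and the contrast was added after they had been seen. Its value is therefore a description, and its call by edgeR's quasi-likelihood test supports nothing. The responses were 0.35 ± 0.14 in DENSpm and -0.54 ± 0.12 in DFMO, and only the second was called. The planned interactions with vehicle, 0.28 ± 0.20 for DENSpm and -0.60 ± 0.16 for DFMO, were not called. Leaving out each of the 12 libraries gave 0.73 to 1.04, called in 5 of 12.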

How the results depend on the processing

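Of the 60 differences of the 5 rows, 25 were called, in the libraries the rows were chosen from. Over 323 alternatives of these, 0 reversed sign and 31 lost the call, which fell on 7 of the 25; over 517 alternatives of the others, 10 gained it. The numbers of all rows called moved most for DENSpm. Without cytokines DENSpm called 18 rows by edgeR, 48 by DESeq2, 32 with halved counts, 30 without a filter and 4 with only the groups compared; with cytokines it called 44, 93 by DESeq2 and 74 with only the groups compared. The interaction of DFMO with cytokines called 14, 30 by DESeq2 and 4 with all 18 libraries, and the added contrast of cytokine responses 10, and 25 by DESeq2. The fit of only the groups compared could not be made for interactions.

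Leaving out each library gave 2 to 32 rows for DENSpm without cytokines, 7 to 21 with cytokines, 5 to 19 for the DFMO interaction, 3 to 16 for the added contrast, 0 for the DENSpm interaction, 269 to 351 for DENSpm against DFMO without cytokines and 284 to 310 with them. It gave 332 to 389 for DFMO without cytokines, 256 to 305 with them, and 186 to 253, 323 to 386 and 228 to 291 for cytokines in DENSpm, DFMO and vehicle. The cause of these shifts was not tested.

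Same-numbered libraries shared only a number: over 45 pairs their correlation ran from -0.07 to 0.11, with 2 over 0.1, and 7 of 18 libraries correlated best with their own number. With a replicate block the counts were 23 and 40 for DENSpm without and with cytokines, 458 and 357 for DFMO, 249, 417 and 307 for cytokines in DENSpm, DFMO and vehicle, 0 and 13 for the DENSpm and DFMO interactions, 414 and 380 for DENSpm against DFMO, and 14 for the added contrast. The block changed 1 call of the 5 rows, that of Rrnad1 with cytokines in DENSpm (0.44, gained). Few counts limit the precision of the Itgad row in DFMO with cytokines (16 counts in all) and of the rows named Mpc1, Cox6a2 and Nt5m; halving all counts ended no call of the 5 rows.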

Other observations

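DENSpm replicate 2 was the lowest of its group in the 4930506C21Rik row (1846 CPM), the Hnrnpu row (1350 CPM), the Rrnad1 row (1305 CPM) and the Cops3 row (659 CPM), and the highest in the Itgad row (368 CPM). It also had the highest level of the Cox20 row among all libraries, 556 CPM, where the other 17 lay between 70.0 and 268 CPM, and the lowest share of counts in rows that face another gene, 80.7%. Its part in the DENSpm results was not tested beyond leaving it out.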
